A study of Mus musculus with 6 samples.

Results

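The genes described here are the liver X receptors (LXRs) and their sterol-handling targets: Nr1h2, Nr1h3, Abca1, Abcg1, Apoe, Pltp, Mylip and Lpcat3. They are 8 of the 31384 genes in a table of RNA sequencing counts. The members were given by symbol and matched to Ensembl identifiers through the GENCODE M21 annotation (build GRCm38, the coordinates used below), and all 8 are protein-coding and passed the filter on low counts. The cells were a mouse spermatogonial stem cell line, the self-renewing germ cells of the testis, grown on embryonic fibroblast feeders that had been arrested with mitomycin C. In the LOVA group lovastatin at 5 μM stood in for GDNF, the NTC group had neither, and the PTC group had GDNF at 10 ng/mL. The medium of the PTC group also held EGF, LIF and FGF2, and per the labels the groups differed in GDNF and lovastatin. Each group had 2 libraries, collected on day 18 and called A and B here after the deposited column names. All groups share 1 cell line and the feeder layer, so each library can hold RNA of germ cells, feeders and any other cell carried along.

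LXRs are nuclear receptors that bind oxysterols, oxidised forms of cholesterol, and act on DNA as heterodimers with retinoid X receptors. When sterols are plentiful they switch on genes that move cholesterol out of the cell, while the transcription factor SREBP2 does the reverse and drives synthesis and uptake when sterols are scarce. Lovastatin blocks an early step of cholesterol synthesis, so it limits the mevalonate from which cholesterol and its oxysterols are made. In the testis LXRs are best known from mice that lack them, which accumulate lipid in Sertoli cells and lose fertility.

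LXRs bind paired half-sites, above all the DR4 element, which is the half-site AGGTCA, any 4 bases, and the half-site again. The promoter table of RefSeq (build GRCm38.p6, windows from 250 bases before to 50 bases after a start) held 10 windows for 7 of the 8 members; Abcg1 had no entry. A search of both strands, allowing 3 mismatches in the 12 fixed bases, found a match in Abca1 only among these 7 genes. It reads as follows on the plus strand, at chr4:53159947-53159962, with the bases that equal the element in capitals.

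Abca1 DR4-like match: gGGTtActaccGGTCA

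The 250 bases before the start of Abca1 (chr4:53159896-53160145, minus strand) are shown because they hold this match, which is in capitals and begins 67 bases upstream. Those of Apoe (chr7:19699189-19699438, minus strand, the first of its 3 windows) and Pltp (chr2:164857709-164857958, minus strand) are shown beside them because these members differed most between the groups.

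Abca1 upstream: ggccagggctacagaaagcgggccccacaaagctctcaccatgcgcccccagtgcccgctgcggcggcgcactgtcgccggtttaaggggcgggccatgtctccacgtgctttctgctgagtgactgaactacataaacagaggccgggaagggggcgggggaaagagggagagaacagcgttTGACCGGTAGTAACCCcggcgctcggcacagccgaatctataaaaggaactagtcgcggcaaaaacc
Apoe upstream: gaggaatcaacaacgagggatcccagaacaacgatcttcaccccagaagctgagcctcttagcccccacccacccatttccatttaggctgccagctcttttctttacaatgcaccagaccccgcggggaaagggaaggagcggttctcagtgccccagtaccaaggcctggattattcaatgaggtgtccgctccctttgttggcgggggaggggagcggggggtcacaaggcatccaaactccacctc
Pltp upstream: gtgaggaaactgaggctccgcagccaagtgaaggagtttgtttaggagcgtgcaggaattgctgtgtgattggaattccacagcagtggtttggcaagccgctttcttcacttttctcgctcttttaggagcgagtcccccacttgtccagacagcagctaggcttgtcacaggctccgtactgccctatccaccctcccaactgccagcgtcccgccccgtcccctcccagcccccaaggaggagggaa

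Matches of this looseness are common: 21.9% of all 32851 windows and 24.5% of all 27025 genes in the table held at least 1. The best window of Apoe, Lpcat3, Nr1h2 and Nr1h3 had 4 mismatches, and that of Mylip and Pltp had 5. These are counts of letters, not of binding sites.

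Total counts ran from 12454671 to 22668087 per library, so 3 counts corresponded to 0.132 to 0.241 CPM (counts per 1000000 counts of a library). The 16 germ cell markers all had counts in every library. Their summed share of counts was 0.267% ± 0.120 in LOVA, 0.246% ± 0.0749 in NTC and 0.545% ± 0.00365 in PTC (SD, n = 2 each, as for all means below). The 15 fibroblast markers took 1.66% ± 0.716 in LOVA, 1.69% ± 0.576 in NTC and 0.283% ± 0.263 in PTC. The 14 macrophage markers took 0.0497% ± 0.00667 in LOVA, 0.236% ± 0.0375 in NTC and 0.0290% ± 0.00310 in PTC. Sertoli, Leydig and endothelial markers each stayed at or under 0.00361% in every library. In bulk RNA of this kind, fewer cells of a type and less RNA per cell cannot be told apart. Germ cell and fibroblast shares moved with the PTC contrasts and the macrophage share with NTC, and their part in the results was not tested. Ratios to marker counts and scaling to germ cell markers are given below as values only.

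The receptors themselves differed in how they behaved. Nr1h2 (chr7:44549616-44553951, minus strand) encodes LXRβ, the broadly expressed receptor, and showed nearly the same level everywhere. It stood at 73.0 and 70.9 CPM in LOVA, 75.9 and 65.1 CPM in NTC and 68.2 and 75.3 CPM in PTC. The 3 groups overlapped throughout. Nr1h3 (chr2:91184061-91202834, minus strand) encodes LXRα, the receptor of liver, fat and macrophages, and was scarce, with 4.13 and 4.64 CPM in LOVA, 8.05 and 6.45 CPM in NTC and 1.76 and 1.92 CPM in PTC. Its groups were fully separated, with NTC highest and PTC lowest. Those levels rest on 58 and 54 counts in LOVA, 101 and 100 in NTC and 28 and 45 in PTC. Scaled to exon length, Nr1h2 stood at 21.4, 21.0 and 21.4 CPM per kilobase in LOVA, NTC and PTC, and Nr1h3 at 1.74, 2.88 and 0.730.

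Of the cholesterol exporters, Abca1 (chr4:53030787-53159895, minus strand) loads cholesterol and phospholipid onto lipid-poor apolipoprotein A-I. Its levels were 49.1 and 73.2 CPM in LOVA, 77.4 and 105.6 CPM in NTC and 150.6 and 157.0 CPM in PTC. The groups did not overlap, and PTC stood clearly above the other two. Abcg1 (chr17:31057675-31117988, plus strand) hands cholesterol on to mature high-density lipoprotein and had 21.6 and 17.2 CPM in LOVA, 23.9 and 18.8 CPM in NTC and 38.6 and 34.6 CPM in PTC. LOVA and NTC overlapped for Abcg1, and both lay below PTC.

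The lipoprotein proteins took other courses. Apoe (chr7:19696109-19699188, minus strand), the apolipoprotein that carries exported lipid and is made in bulk by macrophages, had 146.1 and 173.3 CPM in LOVA, 582.7 and 781.3 CPM in NTC and 165.1 and 186.6 CPM in PTC. LOVA and PTC overlapped, and both NTC libraries stood far above them. Pltp (chr2:164839518-164857711, minus strand), which transfers phospholipid between lipoproteins, had 70.6 and 93.9 CPM in LOVA, 74.6 and 94.6 CPM in NTC and 8.59 and 19.0 CPM in PTC. Here LOVA and NTC overlapped and PTC was the low group.

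The remaining targets act on receptors and membranes. Mylip (chr13:45389742-45412022, plus strand), the ubiquitin ligase also called IDOL that sends lipoprotein receptors to degradation, had 13.0 and 18.8 CPM in LOVA, 22.9 and 30.8 CPM in NTC and 8.72 and 12.9 CPM in PTC. LOVA lay between the other groups, with its lower library just above the higher PTC library. Lpcat3 (chr6:124663027-124704418, plus strand), which places polyunsaturated chains into membrane phospholipids, had 57.8 and 47.0 CPM in LOVA, 66.8 and 54.2 CPM in NTC and 66.5 and 65.0 CPM in PTC. Scaled to exon length, Apoe was the most abundant member in every group, at 74.7 CPM per kilobase in LOVA, 319.0 in NTC and 82.2 in PTC. Pltp was second in LOVA and NTC, at 32.1 and 33.0 CPM per kilobase, but only the fifth in PTC, at 5.39. Libraries were directional but the strand setting of the counting is not given in the sources used here. Pltp overlaps Ctsa and Lpcat3 overlaps Emg1 on the opposite strand, so those 2 members carry that uncertainty.

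**Figure D1:**
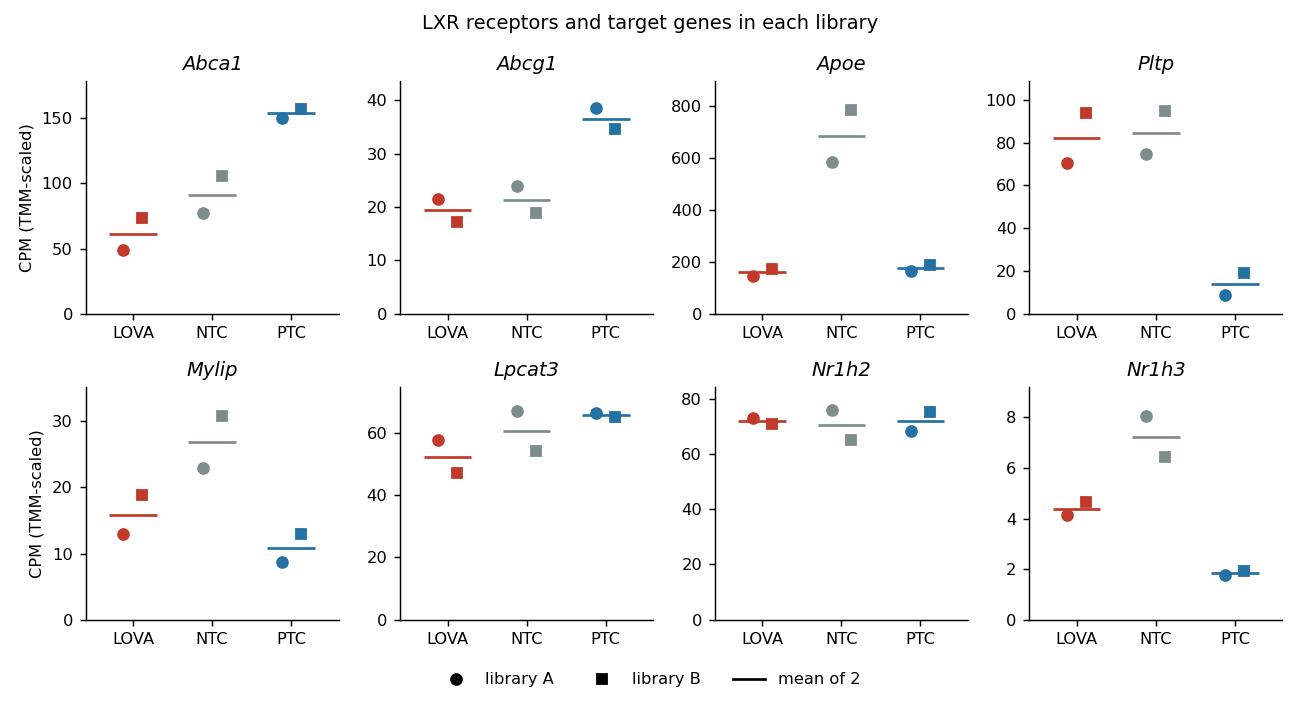
Level of each member in CPM (TMM-scaled) in the LOVA, NTC and PTC libraries. Circles are A libraries, squares are B libraries and bars are means of 2. Apoe, Mylip and Nr1h3 are highest in NTC, Abca1 and Abcg1 are highest in PTC, Pltp is low in PTC, and Nr1h2 stays between 65.1 and 75.9 CPM.

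NTC minus PTC asks what differed when GDNF was left out. Pltp, Nr1h3, Apoe and Mylip rose in NTC and Abcg1 fell, by edgeR's quasi-likelihood test with Benjamini-Hochberg adjustment over 16121 genes. That makes 5 of 8 members called, beside 34.5% of all genes tested, with 4 higher, beside 21.5%, and 1 lower, beside 12.9%. Both NTC libraries lay above both PTC libraries for 4 members, beside 39.0% of genes, and below them for 2, beside 38.5%. The median log2 fold change was 0.64 over the members and -0.02 over all genes tested. Pltp averaged 84.6 ± 14.1 CPM in NTC and 13.8 ± 7.37 CPM in PTC, a 6.10-fold difference (log2 fold change 2.61, SE 0.39, adjusted p = 0.00971). Apoe averaged 682.0 ± 140.4 CPM in NTC and 175.8 ± 15.2 CPM in PTC, 3.88-fold higher (1.96, SE 0.21, adjusted p = 0.00795). Nr1h3 was 3.92-fold higher (1.97, SE 0.35, adjusted p = 0.0126) and Mylip 2.48-fold higher (1.31, SE 0.32, adjusted p = 0.0244).

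The exporters had fold changes below 0, except with libraries scaled to germ cell markers, where they stood at 0.38 and 0.29. Abcg1 averaged 21.4 ± 3.59 CPM in NTC and 36.6 ± 2.83 CPM in PTC (log2 fold change -0.78, SE 0.23, adjusted p = 0.0418). Abca1, at 91.5 ± 20.0 CPM in NTC and 153.8 ± 4.51 CPM in PTC, had a similar fold change of -0.75 (SE 0.25) but missed the threshold (adjusted p = 0.0537). It was called by limma-voom (adjusted p = 0.0347), without the filter on low counts (0.00771), with only the NTC and PTC libraries in the fit (0.0178) and with total-count scaling (0.0278), and when LOVA A (0.0175) or LOVA B (0.0157) was left out. Over all alternatives its adjusted p ran from 0.00337 to 0.581. Lpcat3 and Nr1h2 were not called, with 95% intervals of the log2 fold change of -0.59 to 0.35 and -0.43 to 0.38. Without NTC B, which left a single NTC library, the members lost their calls along with nearly all other genes. Apoe then stood at 1.73, Pltp at 2.43, Nr1h3 at 2.13, Mylip at 1.08 and Abcg1 at -0.61. Without PTC A, Mylip (1.06), Nr1h3 (1.91) and Abcg1 (-0.70) lost their calls, and Abcg1 also without NTC A (-0.95) or PTC B (-0.86). Each of these fits also called fewer genes higher than the main fit.

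**Figure D2:**
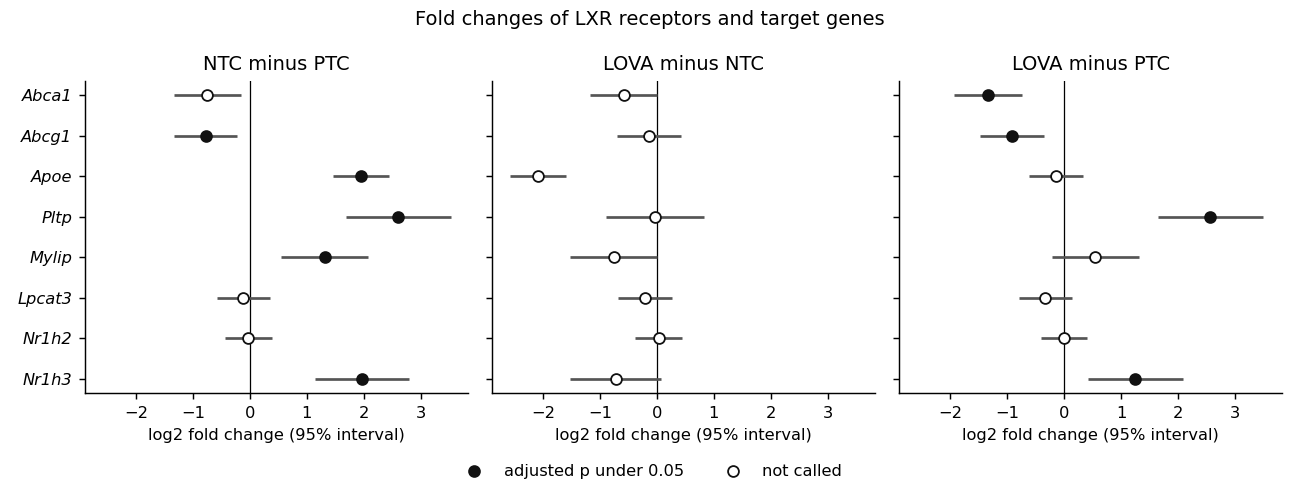
Log2 fold changes of the 8 members in the 3 contrasts, with 95% intervals from the edgeR fit. Filled points passed an adjusted p of 0.05 and open points did not. Apoe reaches 1.96 in NTC minus PTC and -2.09 in LOVA minus NTC, where no member is filled. The exporters' position depends on the scaling: with libraries scaled to germ cell markers Abcg1 is at 0.29 in NTC minus PTC and 0.10 in LOVA minus PTC, and Abca1 at 0.38 in NTC minus PTC.

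These directions are relative to the whole RNA pool, whose germ cell share differed between NTC and PTC. With libraries scaled to the summed germ cell markers, the median of all genes moved by 1.09 on the log2 scale. Abca1 then stood at 0.38 (adjusted p = 0.581) and Abcg1 at 0.29 (0.528), neither called, or -0.70 and -0.80 relative to that shift. Lpcat3 and Nr1h2 turned to 0.95 and 1.05, neither called. Apoe, Pltp, Nr1h3 and Mylip remained called as higher, between 2.45 and 3.75, beside 5096 of all 16121 genes. Per 100 germ cell marker counts, Abca1 had 2.61 and 5.12 counts in NTC and 2.96 and 2.97 in PTC. Abcg1 had 0.806 and 0.913 in NTC and 0.757 and 0.654 in PTC on the same measure. The germ cell marker share itself differed between A and B, at 0.299% and 0.193% in NTC and 0.352% and 0.181% in LOVA. In PTC it was 0.542% and 0.547%. Scaling to these markers carries that spread into every gene, which can cost calls.

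**Figure D3:**
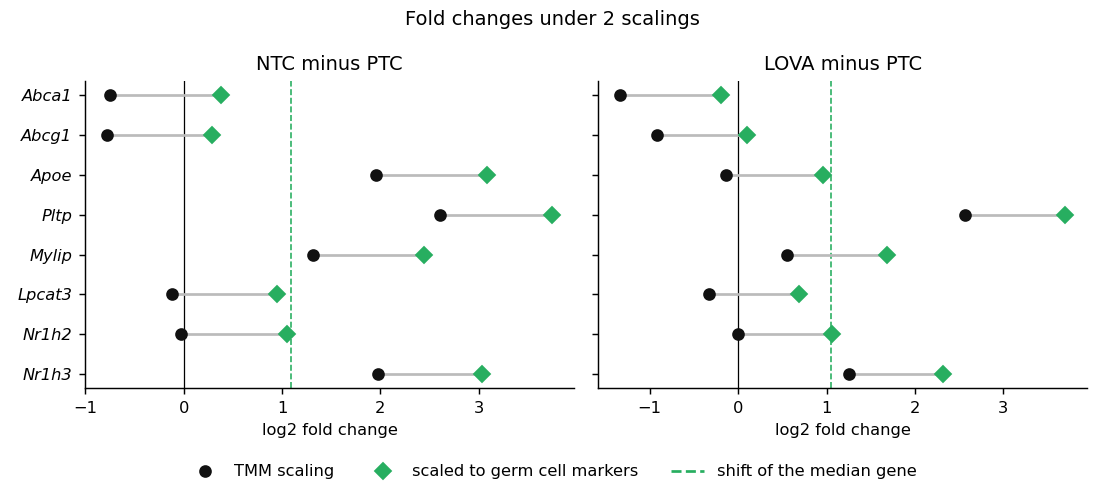
Log2 fold changes of the 8 members with TMM scaling (black circles) and with libraries scaled to germ cell markers (green diamonds), for NTC minus PTC and LOVA minus PTC. The dashed line is the shift of the median gene, 1.09 and 1.05. In NTC minus PTC, Abca1 and Abcg1 move from below to above 0 while staying left of the dashed line, and Apoe, Pltp, Mylip and Nr1h3 lie right of it.

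LOVA minus NTC asks what lovastatin did in medium without GDNF. Apoe was 4.27-fold lower in LOVA, at 159.7 ± 19.2 CPM against 682.0 ± 140.4 CPM in NTC, but with an adjusted p of 0.0589 it missed the threshold (log2 fold change -2.09, SE 0.21). No member and no gene passed by edgeR's quasi-likelihood test (0.0% of genes called). At an unadjusted p under 0.05 there were 561 genes (3.48%), 2 of them members, Apoe and Mylip. DESeq2 (adjusted p = 1.57e-11), limma-voom (0.0420), edgeR without the filter on low counts (2.68e-15) and edgeR with total-count scaling (0.0400) called Apoe, whose adjusted p ran from 2.68e-15 to 1.00 over all alternatives. Fold changes were below 0 in 7 of the 8 members and above 0 in 1, while 51.0% of all genes tested were above 0. The members' median was -0.40, beside 0.01 over all genes tested. In 4 of 8 members both LOVA libraries lay below both NTC libraries, beside 13.0% of all genes tested, and these were Apoe, Mylip, Nr1h3 and Abca1. Mylip was at -0.76 (SE 0.32), Nr1h3 at -0.72 (SE 0.34) and Abca1 at -0.58 (SE 0.25), each with an adjusted p of 1.00. Their 95% intervals ran from -1.52 to -0.0015 for Mylip, -1.52 to 0.08 for Nr1h3 and -1.17 to 0.0049 for Abca1. Pltp (-0.04, interval -0.90 to 0.82), Abcg1 (-0.14, -0.69 to 0.42), Lpcat3 (-0.21, -0.68 to 0.26) and Nr1h2 (0.03, -0.38 to 0.44) had overlapping groups.

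The fold change of Apoe in LOVA minus NTC stood close to that of macrophage markers. All 14 of these were below 0, with a median of -2.34 and a range of -2.74 to -1.42. Against PTC the distance was wider. The macrophage median was 3.05 in NTC minus PTC and 0.66 in LOVA minus PTC, beside 1.96 and -0.14 for Apoe. For every 100 macrophage marker counts there were 33.3 and 29.7 Apoe counts in LOVA, 28.1 and 27.9 in NTC and 56.4 and 72.1 in PTC. LOVA and NTC thus differed far less on this measure than in CPM, and PTC stood above both. Abca1 did not keep such a ratio, with 11.2 and 12.5 counts per 100 macrophage marker counts in LOVA, 3.73 and 3.77 in NTC and 51.4 and 60.7 in PTC. Fibroblast and germ cell markers had medians of -0.03 and 0.03 in LOVA minus NTC.

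LOVA minus PTC sets lovastatin against GDNF. Pltp and Nr1h3 rose in LOVA and Abca1 and Abcg1 fell, by edgeR's quasi-likelihood test, though neither exporter was called with libraries scaled to germ cell markers. That is 4 of 8 members called, beside 30.6% of genes tested, with 2 higher, beside 19.8%, and 2 lower, beside 10.8%. Both LOVA libraries lay above both PTC libraries for 3 members, beside 38.4% of genes, and below them for 3, beside 37.9%. The members' median was -0.07, beside 0.00 over all genes tested. Abca1 averaged 61.2 ± 17.0 CPM in LOVA and 153.8 ± 4.51 CPM in PTC, 2.52-fold lower (log2 fold change -1.33, SE 0.25, adjusted p = 0.0181). Abcg1 averaged 19.4 ± 3.10 CPM in LOVA and 36.6 ± 2.83 CPM in PTC (-0.91, SE 0.23, adjusted p = 0.0306). Pltp was 5.92-fold higher in LOVA (2.57, SE 0.39, adjusted p = 0.0167) and Nr1h3 2.38-fold higher (1.25, SE 0.35, adjusted p = 0.0380). Apoe was not called, and the 95% interval of its log2 fold change was -0.61 to 0.33. Nor were Mylip (0.55, -0.21 to 1.31), Lpcat3 (-0.33, -0.80 to 0.14) or Nr1h2 (0.00, -0.40 to 0.41).

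The calls of this contrast rested on single libraries to different degrees. Abca1 lost its call without PTC A (-1.36, adjusted p = 0.0558) and Pltp without LOVA B (2.35, 0.0667). Abcg1 and Nr1h3 lost theirs when any single library other than LOVA A was left out, with Abcg1 between -0.995 and -0.76 and Nr1h3 between 1.16 and 1.31 in those 5 fits. Nr1h3 also missed the threshold with only the LOVA and PTC libraries (adjusted p = 0.0752) and with total-count scaling (0.0528). With libraries scaled to germ cell markers, the median gene shifted by 1.05. By edgeR's quasi-likelihood test Abca1 then stood at -0.19 (adjusted p = 0.795), Abcg1 at 0.10 (0.839), Apoe at 0.96 (0.167) and Lpcat3 at 0.69 (0.143). Pltp at 3.70 and Nr1h3 at 2.32 remained called as higher (0.0282 for each), beside 4715 of all 16121 genes. Mylip at 1.69 and Nr1h2 at 1.06 were not called. Relative to that shift Abca1 was at -1.24 and Abcg1 at -0.95. Per 100 germ cell marker counts Abca1 had 1.43 and 3.76 counts in LOVA and 2.96 and 2.97 in PTC. NTC minus PTC and LOVA minus PTC share the PTC libraries, so their values are not independent.

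Pltp and the fibroblast markers were both lower in PTC than in the other groups. Per 100 fibroblast marker counts, Pltp had 0.630 and 0.405 counts in LOVA, 0.589 and 0.423 in NTC and 0.942 and 0.419 in PTC. The 3 groups overlapped on this measure, with a wide spread within groups. In PTC the fibroblast share was 0.0971% in A and 0.469% in B, while Pltp had 8.59 and 19.0 CPM. Whether Pltp tracked these markers was not tested. All 15 fibroblast markers had positive fold changes against PTC, 8 of them called in each contrast, beside 21.5% and 19.8% of all genes. Scaled to germ cell markers, 15 were called in each, beside 5096 and 4715 of all 16121 genes. They had medians of 2.94 in NTC minus PTC and 2.77 in LOVA minus PTC. Those medians lie close to Pltp's own 2.61 and 2.57.

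**Figure D4:**
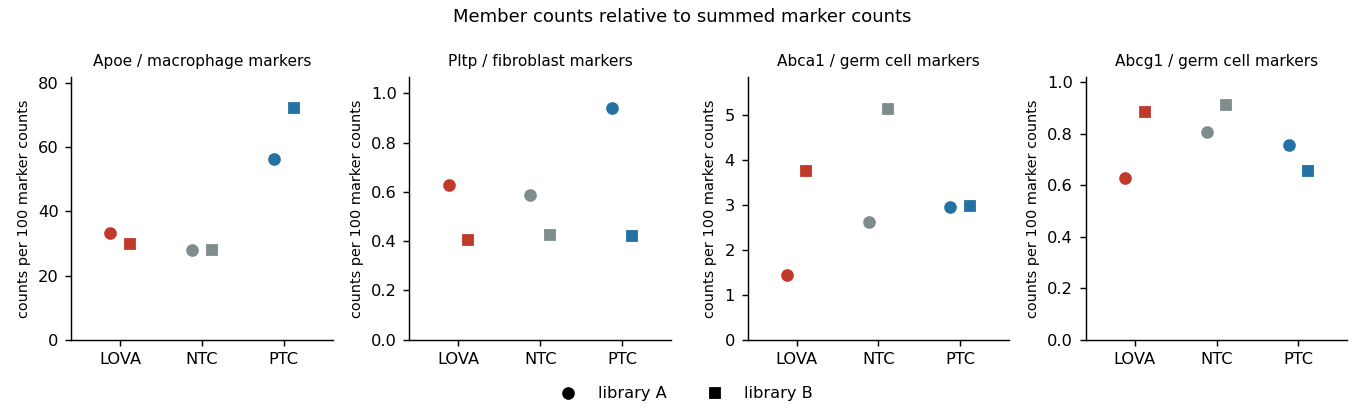
Counts of a member per 100 summed marker counts in each library: Apoe over macrophage markers, Pltp over fibroblast markers, and Abca1 and Abcg1 over germ cell markers. Circles are A libraries and squares are B libraries. Apoe lies between 27.9 and 33.3 in the 4 LOVA and NTC libraries and at 56.4 and 72.1 in PTC, while the groups overlap in the other 3 panels except NTC and PTC for Abcg1, where NTC lies at 0.806 and 0.913 and PTC at 0.757 and 0.654.

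Over the 6 libraries the widest ranges among members belonged to Pltp and Apoe, at 3.45 and 2.42 on the log2 CPM scale. Of 11828 genes with a mean of at least 5 CPM, those most like Pltp in log2 CPM were B3gnt9, S100a11 and Scara3, each with a Pearson r of 1.00. That is not a rare profile, since 2953 genes reached an r of 0.9 with Pltp. Most like Apoe were Cd5l (r of 0.99), Mad2l2 (0.99) and Cd68 (0.99), and 82 genes reached 0.9. Cd5l, a protein secreted by macrophages, had 7.69 and 11.95 CPM in LOVA, 74.1 and 139.4 CPM in NTC and 9.09 and 8.99 CPM in PTC. These correlations describe 6 libraries that share a pool of cell types.

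Of 12 other targets of LXRs, 9 passed the filter on low counts. In NTC minus PTC 2 rose and none fell, with a median of 0.79, a share near the 21.5% of all genes that were higher. Germ cell marker scaling called 4 of the 9 higher in NTC minus PTC, and 4 in LOVA minus PTC, beside 5096 and 4715 of all 16121 genes. The 2 were the lipoprotein lipase gene Lpl (log2 fold change 4.15, SE 0.81) and Smpdl3a (3.36, SE 0.34), a phosphodiesterase. Both also rose in LOVA minus PTC (3.57 and 2.90), together with the desaturase gene Scd2 (1.46, SE 0.35), so 3 of the 9, beside 19.8% of all genes. None of the 9 was called in LOVA minus NTC, with Scd2 at 0.46 and Lpl at -0.58. Smpdl3a averaged 74.5 ± 21.1 CPM in LOVA, 103.0 ± 16.8 CPM in NTC and 9.93 ± 3.67 CPM in PTC. Srebf1, the lipogenic regulator that LXRs induce in liver, was at -0.19 in NTC minus PTC, 0.03 in LOVA minus NTC and -0.16 in LOVA minus PTC, not called, and is named for that role and not by the rule. The bile acid enzyme gene Cyp7a1 had 0 counts in all 6 libraries.

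Of 8 partners and coregulators of the receptors, 2 rose and 1 fell in NTC minus PTC, with a median of -0.34, shares near the 21.5% higher and 12.9% lower of all genes. Nrip1, a corepressor that also binds LXRs, rose by 2.84 (SE 0.60) and the coactivator gene Ncoa1 by 1.82 (SE 0.41). In LOVA minus PTC Nrip1 (3.29) and Ncoa1 (1.88) rose and the partner receptor gene Rxrb fell by 0.67 (SE 0.19). Of all genes, 19.8% were higher and 10.8% lower there. With libraries scaled to germ cell markers none of the 8 was called lower in either contrast. Only 35 and 28 of all 16121 genes were, so that count says little about the 8. Rxrb then stood at 0.38 in LOVA minus PTC, below the shift of 1.05 for the median gene. In LOVA minus NTC none of the 8 was called, with Rxra at -0.02.

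Of 6 genes that make or clear oxysterols, the ligands of LXRs, 3 rose and none fell in NTC minus PTC, beside 21.5% of all genes higher, and the same 3 rose in LOVA minus PTC, beside 19.8%. Germ cell marker scaling called 5 and 4 of the 6 higher, beside 5096 and 4715 of all 16121 genes. The 3 were Cyp7b1, an oxysterol hydroxylase (4.40 and 3.85), Ch25h, which makes 25-hydroxycholesterol (3.37 and 3.06), and Hsd3b7 of bile acid synthesis (2.53 and 2.43). Cyp7b1 averaged 98.6 ± 49.9 CPM in LOVA, 145.0 ± 30.5 CPM in NTC and 6.70 ± 7.16 CPM in PTC. The fibroblast share was higher in the same libraries. In LOVA minus NTC Cyp7b1 (-0.56, SE 0.75) and Ch25h (-0.31, SE 0.61) were not called.

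Of 8 genes of cholesterol esters and other efflux steps, 7 were tested, of which 1 rose in NTC minus PTC, beside 21.5% of all genes, and 2 in LOVA minus PTC, beside 19.8%. Lipa, the lysosomal acid lipase, rose in both (2.21, SE 0.36, and 1.83, SE 0.35). Lcat, the plasma cholesterol-esterifying enzyme, rose in LOVA minus PTC (3.23, SE 0.70) on 31 and 26 counts in LOVA and 4 and 5 counts in PTC. In LOVA minus NTC Lipa stood at -0.38 and Soat1, which esterifies cholesterol in cells, at -0.12, neither called. Lcat was at 2.00 (SE 0.65, unadjusted p = 0.0187 and adjusted p = 1.00 by edgeR's quasi-likelihood test), with both LOVA libraries above both NTC libraries, which held 10 and 5 counts. Apoa1, the acceptor of cholesterol from Abca1, had at most 7 counts in any library. Among 6 other lysophospholipid acyltransferases, Mboat2 and Lpcat1 fell in NTC minus PTC (-1.59 and -1.15) and in LOVA minus PTC (-1.46 and -0.98), beside 12.9% and 10.8% of all genes, while Lpcat3 was not called. Whether Lpcat3 differed from them was not tested. With libraries scaled to germ cell markers neither Mboat2 nor Lpcat1 was called, where only 35 and 28 of all 16121 genes were lower. They stood at -0.53 and -0.073 in NTC minus PTC, below the shift of 1.09 for the median gene. In LOVA minus NTC Lpcat1 was at 0.17 and Mboat7 at 0.11, not called.

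The lipoprotein receptors that Mylip targets and the genes of SREBP2 give the sterol side of the picture. Of the 3 receptors, 1 rose in NTC minus PTC and 2 in LOVA minus PTC, beside 21.5% and 19.8% of all genes, and none fell. Vldlr, the receptor for very-low-density lipoprotein, rose in both (2.68, SE 0.56, and 3.19, SE 0.57) and was not called in LOVA minus NTC (0.50, SE 0.52). It averaged 52.2 ± 22.0 CPM in LOVA, 36.8 ± 11.6 CPM in NTC and 5.64 ± 3.90 CPM in PTC. All 12 listed SREBP2 targets had both LOVA libraries above both NTC libraries, beside 12.7% of all genes tested, with a median log2 fold change of 1.00 and none called. Hmgcs1, an enzyme of cholesterol synthesis, was at 1.01 (SE 0.18) and Insig1, a sterol sensor, at 0.87 (SE 0.17) in that contrast. In LOVA minus PTC 7 of the 12 rose, beside 19.8% of all genes, among them Cyp51 of cholesterol synthesis (1.34, SE 0.21). In NTC minus PTC 4 fell, beside 12.9%, among them Fdps of isoprenoid synthesis (-0.78, SE 0.20), and none rose. With libraries scaled to germ cell markers none of the 12 was called lower in NTC minus PTC. Only 35 of all 16121 genes were, so that count says little about the 12. Fdps then stood at 0.30, below the shift of 1.09 for the median gene. The median CPM of the SREBP2 targets was highest in LOVA, at 282.4 and 253.3 CPM in LOVA, 128.6 and 134.4 in NTC and 190.7 and 188.9 in PTC.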

How the data were processed

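Per the submitters' processing notes, Trimmomatic, Bowtie2, RSEM and DESeq2 were used with mouse build mm10; versions and roles are not given in the sources used here. The authors deposited raw whole-number counts per Ensembl gene, which may be rounded RSEM estimates. GENCODE M21 (GRCm38) matched 31363 of 31384 identifiers. Column letters are matched to no replicate number by the labels, and separate cultures are not stated, so p-values measure only the spread between these libraries. Floors of 3 counts cover counting error only.

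Genes kept by filterByExpr (16121) were fitted over all 6 libraries, 1 coefficient per group, with TMM scaling in edgeR 4.0.16 (robust quasi-likelihood, legacy form; limma 3.58.1, DESeq2 1.42.0, R 4.3.3), with 3 residual degrees of freedom. CPM uses TMM-scaled totals; CPM per kilobase divides by the union of a gene's exons. Calls are Benjamini-Hochberg adjusted p under 0.05. On simulated counts (200 changed genes), 71%, 68% and 63% of 4-fold changes and 13%, 8% and 7% of 2-fold changes were recovered, in that order for NTC minus PTC, for LOVA minus NTC, and for LOVA minus PTC, with 8, 7 and 13 false calls. All members were named; of each other list up to 3 called genes by size per contrast, or the 2 most abundant, except that some genes are not reported here. The members and lists were chosen with earlier results of these data known. Alternatives were other scalings, no filter, DESeq2, limma-voom, fewer groups, a replicate block and leaving out each library.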

Additional observations from a re-analysis of the deposited data

How the results depend on the processing

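Depth limits Nr1h3 most, which had 28 to 101 counts per library, and 2 libraries per group limit every test. With libraries scaled to germ cell markers, NTC minus PTC gave 5096 genes higher and 35 lower (3472 and 2086 with TMM) and 0 members lower, with Abca1 at 0.38, Abcg1 at 0.29, Lpcat3 at 0.95 and Nr1h2 at 1.05. LOVA minus PTC then gave 4715 higher and 28 lower (3192 and 1747 with TMM), 0 members lower, Abcg1 at 0.10, Apoe at 0.96 and Lpcat3 at 0.69. Members called lower in NTC minus PTC numbered 2 with limma-voom, no filter, only those 2 groups, total counts and the replicate block, against 1; the second was Abca1. Only the 2 groups compared and total counts each left 1 member higher in LOVA minus PTC. Genes called lower there were 2703 with no filter and 881 with only the 2 groups. In LOVA minus NTC, 1 member, Apoe, was called lower with DESeq2, limma-voom, no filter, total counts and the block. Genes called there were 19 higher and 86 lower with DESeq2, 44 and 147 with no filter, 4 lower with limma-voom and 15 lower with total counts. Nr1h2 in LOVA minus PTC turned to -0.0065 with DESeq2, -0.037 with no filter and -0.094 with total counts. Other causes were not tested.

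A replicate block by column letter called 3632 genes lower in NTC minus PTC, 3466 lower in LOVA minus PTC, and 18 higher and 72 lower in LOVA minus NTC. Under it Abca1 had -0.77 (adjusted p = 0.00337) in NTC minus PTC and Apoe -2.09 (adjusted p = 0.000179) in LOVA minus NTC. A-minus-B differences correlated at 0.22 to 0.32 between groups across genes, and nothing in the labels makes the letters a pairing.

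Leaving out 1 library at a time gave these ranges. In NTC minus PTC, 0 to 4 members and 1 to 3635 genes were higher, 0 to 2 members and 0 to 3091 genes lower, Lpcat3 lay between -0.27 and 0.026 and Nr1h2 between -0.14 and 0.084. In LOVA minus NTC, 0 members were called, 0 genes were higher and 0 to 2 lower, with Abcg1 between -0.31 and 0.017, Pltp between -0.26 and 0.15, and Nr1h2 between -0.080 and 0.12. In LOVA minus PTC, 0 to 2 members were higher and 0 to 2 lower, 628 to 3580 genes higher and 57 to 3174 lower, and Nr1h2 lay between -0.069 and 0.071.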
